A study of Mus musculus with 38 samples.

Results

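The 10 trophectoderm genes Cdx2, Elf5, Tfap2c, Krt8, Krt18, Gata3, Gata2, Hand1, Tead4 and Esx1 were followed through 5 histone modifications in mouse embryonic stem cells (mESCs). They were chosen by name, as 10 of the 21938 protein-coding genes on chromosomes 1 to 19, X and Y. Each gene was read over 1 window, its body plus 5000 bp on either side, and everything called in that window was taken from the 30 lists of enriched regions. Chromatin immunoprecipitation and sequencing (ChIP-seq) covered H3K27me3 and H3K9me3, then H3K4me1, H3K4me3 and H3K27ac, and had 3 IκBα-WT (WT) and 3 IκBα-KO (KO) libraries per modification, and 8 input samples completed the set of 38.

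All cells were of the ES-E14TG2a line, grown on gelatin in medium with serum and leukaemia inhibitory factor (LIF) and collected at 0 h. WT cells carried both copies of Nfkbia (IkappaBalpha+/+ in the labels), the gene for the NF-κB inhibitor IκBα. KO cells (IkappaBalpha-/-) had been edited with CRISPR/Cas9 guides to its first exon, and the study's methods describe non-targeting guides for the WT cells and separate clones as replicates. A difference between the genotypes is therefore a difference between 3 and 3 clones, and p-values measure the spread between them. All libraries of a genotype and experiment shared 1 input, so a difference between the inputs is not part of that spread. This bears on H3K4me3, which is given as fold over input. The labels name 1 antibody product for both H3K27ac and H3K4me1, while the methods name another for H3K27ac, and which was used is not known here.

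The trophectoderm is the outer epithelium of the blastocyst and gives rise to the placenta. Its fate is set by TEAD4, a DNA-binding partner of the Hippo co-activator YAP, and by the transcription factors CDX2, GATA3, GATA2 and TFAP2C. ELF5 maintains trophoblast stem cells, HAND1 and ESX1 act in later trophoblast and placenta, and keratins 8 and 18 pair into the intermediate filaments of the epithelium. Embryonic stem cells come from the inner cell mass and keep most of these genes silent. H3K27me3 is the mark of Polycomb repression, H3K4me3 marks promoters, and promoters with both are called bivalent. H3K27ac is found at active promoters and enhancers, H3K4me1 at enhancers and around promoters, and H3K9me3 in heterochromatin.

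RefSeq promoter entries on GRCm38.p6, which hold 250 bases before and 50 after a start site, matched 7 of the 10 genes in 9 entries. Tfap2c, Hand1 and Tead4 had none. The upstream sequences of 6 genes are shown because their H3K4me3 ranged from several peaks to none, and CpG sites, the sites of DNA methylation, are in capitals. Each is written 5′ to 3′ on the strand of the gene and stops at the first base that GENCODE annotates as untranslated exon. The Krt18 stretch lies at chr15:102027966-102028179 (plus strand), that of Krt8 at chr15:102004483-102004592 (minus), that of Gata2 at chr6:88193641-88193890 (plus) and that of Cdx2 at chr5:147307271-147307499 (minus). Esx1 is shown from chrX:137120327-137120576 (minus), and Elf5 from chr2:103423818-103424061 (plus), in front of its second RefSeq start site.
Krt18: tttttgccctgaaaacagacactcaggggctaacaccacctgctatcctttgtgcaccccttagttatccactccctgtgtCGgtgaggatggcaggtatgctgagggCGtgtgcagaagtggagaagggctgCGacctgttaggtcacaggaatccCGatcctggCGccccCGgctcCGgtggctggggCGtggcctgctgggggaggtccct
Krt8: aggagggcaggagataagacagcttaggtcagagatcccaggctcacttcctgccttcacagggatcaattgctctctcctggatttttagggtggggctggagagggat
Gata2: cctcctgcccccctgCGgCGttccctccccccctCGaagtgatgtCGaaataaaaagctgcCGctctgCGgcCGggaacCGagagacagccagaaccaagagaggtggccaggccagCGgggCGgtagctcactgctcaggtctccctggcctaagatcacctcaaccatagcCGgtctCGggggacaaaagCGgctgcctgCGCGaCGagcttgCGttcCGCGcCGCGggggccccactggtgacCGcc
Cdx2: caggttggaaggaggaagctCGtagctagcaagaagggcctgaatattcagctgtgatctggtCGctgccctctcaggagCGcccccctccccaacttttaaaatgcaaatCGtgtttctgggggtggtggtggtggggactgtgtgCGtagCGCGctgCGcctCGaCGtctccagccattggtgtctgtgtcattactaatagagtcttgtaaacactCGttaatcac
Esx1: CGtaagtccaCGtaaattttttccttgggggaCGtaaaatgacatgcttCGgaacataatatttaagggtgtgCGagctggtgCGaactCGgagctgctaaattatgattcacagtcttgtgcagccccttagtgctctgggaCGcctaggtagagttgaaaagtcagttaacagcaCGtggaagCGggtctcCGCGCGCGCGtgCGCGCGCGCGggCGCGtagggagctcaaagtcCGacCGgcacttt
Elf5: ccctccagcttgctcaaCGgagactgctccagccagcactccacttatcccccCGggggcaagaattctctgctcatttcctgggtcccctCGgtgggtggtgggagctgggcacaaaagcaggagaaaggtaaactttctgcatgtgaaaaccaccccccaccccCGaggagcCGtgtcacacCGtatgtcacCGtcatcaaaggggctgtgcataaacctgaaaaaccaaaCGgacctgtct

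Over the 250 bases before the start site, Esx1 had 24 CpG sites, Gata2 22, Gata3 19, Cdx2 13, Krt18 12 and Krt8 3. The 2 entries of Elf5 had 2 and 8. Over all 32851 promoters of the table the median was 6, so the keratin pair straddled it and the factors Gata2, Gata3 and Cdx2 lay above it. The letters of 4 motifs were searched on both strands of the 300 bases of each entry, and no matches of different motifs overlapped. The AP-2 motif GCCNNNGGC was found in Cdx2, Krt18, Gata3 and the second entry of Gata2, and in 16.6% of all promoters. The TEAD motif GGAATG was found in the first entry of Elf5 and the second of Gata2 (14.7% of all promoters), and the GATA motif AGATAA in Krt8 (11.2%). The κB motif, the binding sequence of NF-κB, was found in Cdx2 and Krt18 (8.46% of all promoters).

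Polycomb chromatin was called at all 10 genes in both genotypes, to unequal extents. H3K27me3 was called in all 6 libraries in 10 of 10 windows, against 44.4% of all gene windows. It covered 100% of the Cdx2 window in the WT mean, 75.5% of that of Gata3, 43.9% of that of Elf5 and 8.32% of that of Tead4. Signal is given here as ChIP reads per kb of called sequence, scaled between libraries by trimmed means (TMM). The WT mean of Gata2 lay at percentile 99.9 of windows called in all 6 libraries, Hand1 at 98.5, Cdx2 at 98.3 and Gata3 at 97.6. Tead4, Tfap2c, Krt18 and Krt8 followed between 75.0 and 82.5, Esx1 stood at 55.7 and Elf5 at 7.97. H3K4me3 went with it at a modest level. The strongest peak of the WT mean stood at percentile 4.68 of windows in Hand1, 9.39 in Gata3, 11.2 in Cdx2 and 18.6 in Gata2, and at 38.2 in Tfap2c and 50.2 in Tead4.

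The H3K4me3 of these genes lay inside the Polycomb domains. Taking sequence called in at least 2 of 3 libraries of a genotype, all H3K4me3 sequence fell within H3K27me3 in 9 of 9 genes that had any in WT, and in 8 of 8 in KO. The same held for 26.5% of all gene windows with H3K4me3 in WT and for 25.4% in KO. H3K27ac fell wholly within H3K27me3 in 5 of 9 genes in WT and 3 of 9 in KO, against 6.36% and 5.62% of all windows. These regions come from pooled cells, so alleles or cells that carry one mark cannot be told apart from those that carry both. Where H3K27ac lay wholly inside in WT, its density was low, at percentile 23.0 of windows in Hand1, 25.4 in Krt8, 26.4 in Cdx2 and 31.6 in Krt18. Elf5, with no call in WT replicate 2, was not ranked. Of the others, Gata2 stood at 23.0, Tead4 at 53.0, Tfap2c at 65.3 and Gata3 at 72.0. Of the H3K27ac sequence of Tead4, most lay outside H3K27me3, with 11.3% inside in WT and 8.40% in KO, and that of Gata3 lay inside for 69.6% in WT and 49.5% in KO.

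**Figure D1:**
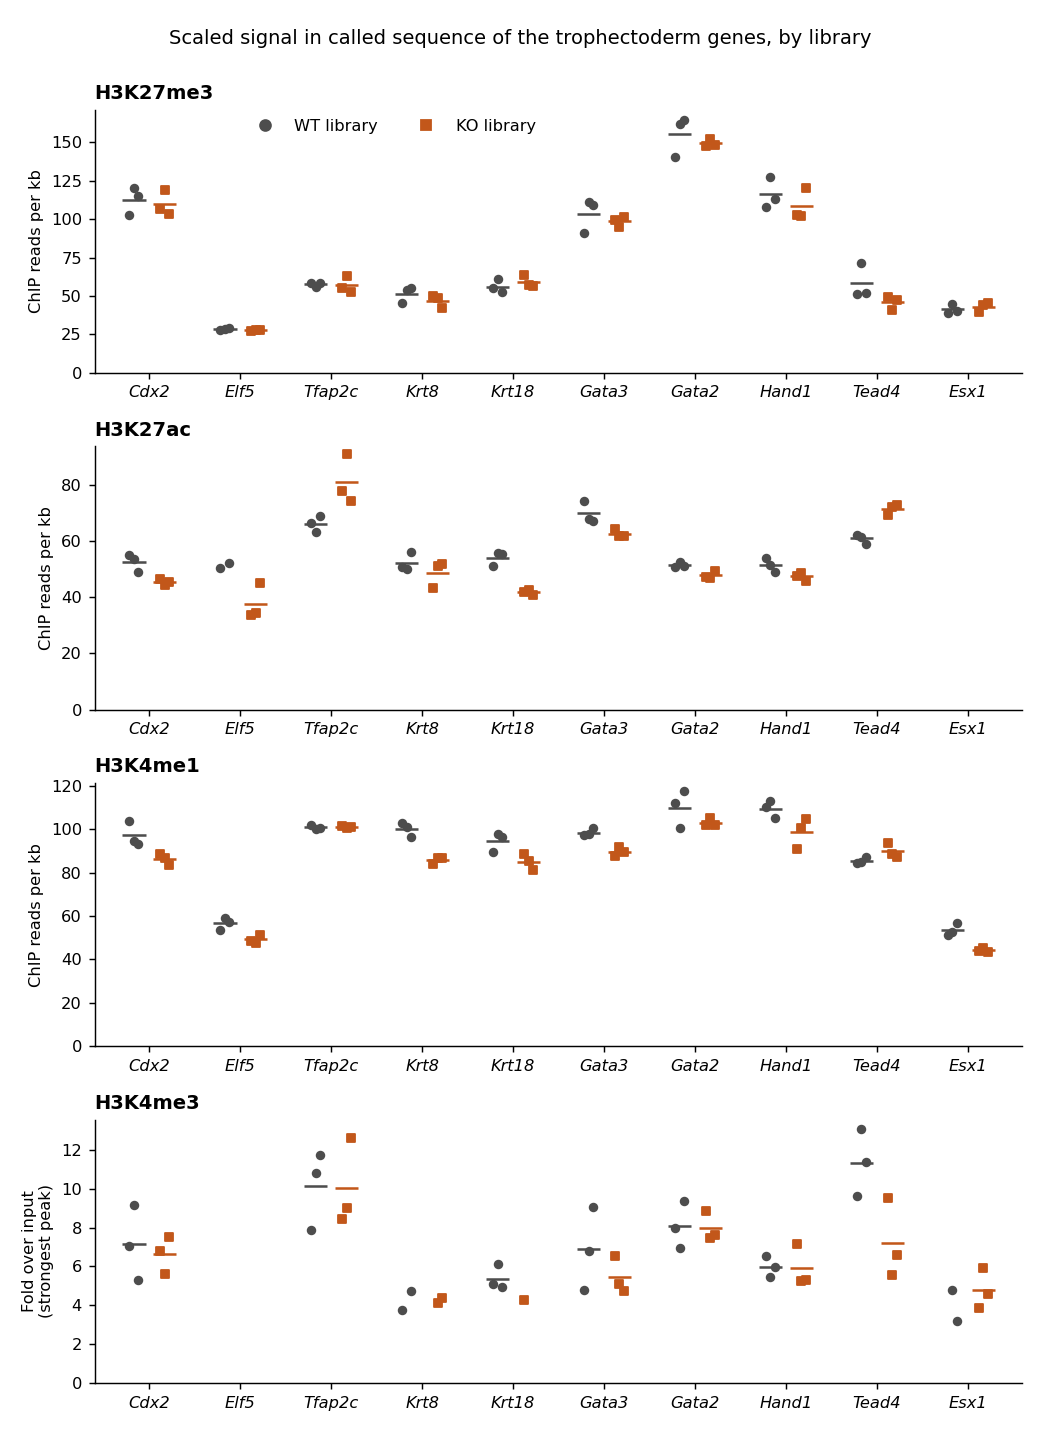
Signal in each of the 10 genes by library, as scaled ChIP reads per kb of called sequence for H3K27me3, H3K27ac and H3K4me1 and as centred fold over input of the strongest peak for H3K4me3. Points are the 3 WT (grey circles) and 3 KO (orange squares) libraries, bars the mean where all 3 have a call, and H3K27me3 spans 26.97 to 164 reads per kb from Elf5 to Gata2.

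Between the genotypes, few of the genes passed a test, and no mark moved all of them. For H3K27me3, 0 of 10 were called by edgeR's quasi-likelihood test with Benjamini-Hochberg adjustment over 9654 windows, and 1 of 10, Tead4, had an unadjusted p under 0.05, as did 1478 of the windows. Of all windows, 0.922% were called higher in KO and 0.601% lower. For H3K27ac, 1 of 8 tested genes was higher in KO (Tead4) and 1 lower (Krt18), against 7.36% and 2.6% of all windows. For H3K4me1, 0 of 10 were higher and 2 lower (Krt8 and Gata3), against 5.98% and 2.76%. For H3K4me3, limma on the log2 fold enrichment of the strongest peak called 0 of 6 tested genes higher and 1 lower (Tead4), against 9.96% and 10.7%. H3K9me3 had no gene with calls in all 6 libraries, against 27.9% of all gene windows, and was not tested.

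The lean of the values differed by mark. In H3K4me1, 8 of 10 log2 ratios were below 0, with a median of -0.15 against -0.0039 over all windows. In edgeR 8 of 10 had an unadjusted p under 0.05, as did 3700 of 16667 windows. Those 8 took in Tead4, which was higher in KO. In H3K27ac, 6 of 8 were below 0, with a median of -0.11 against -0.01. Here 5 of 8 had an unadjusted edgeR p under 0.05, as did 3580 of 14607 windows. Of these genes Krt18, Gata3 and Cdx2 were lower in KO, and Tead4 and Tfap2c higher. In H3K27me3, 8 of 10 were below 0, with a median of -0.06, and in H3K4me3 6 of 6 were, with a median of -0.06 against -0.02. TMM and centring set the typical window to no change, so a shift shared by all windows cannot be seen. In the alternative without TMM, libraries were scaled by their total of ChIP reads within called regions, which depends on how much sequence was called. For H3K27ac that sequence was 380.4 to 392.5 Mb in WT and 410.6 to 419.2 Mb in KO. The medians so obtained therefore do not measure a shared shift. Without TMM the median of all windows was -0.14 for H3K27me3, 0.16 for H3K9me3 and -0.15 for H3K27ac on the log2 scale. The split of windows called higher and lower then went from 89 and 58 to 29 and 276 for H3K27me3, from 17 and 33 to 94 and 15 for H3K9me3, and from 1075 and 380 to 467 and 4166 for H3K27ac. Without centring of H3K4me3 it went from 1348 and 1451 to 1513 and 779.

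**Figure D2:**
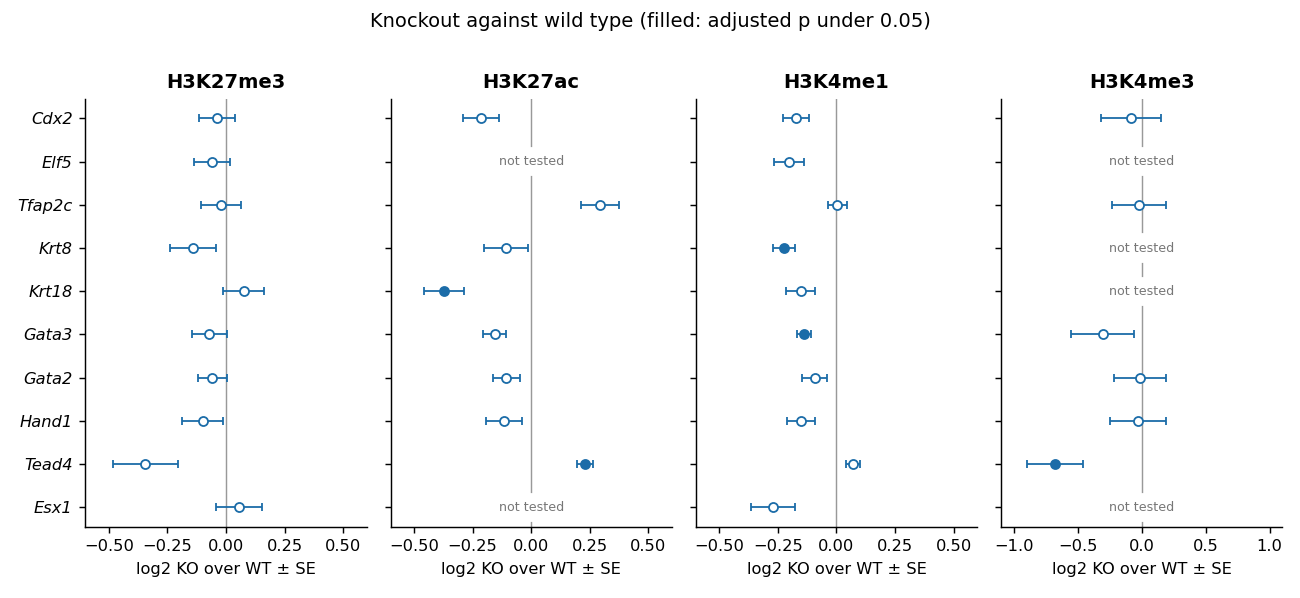
The log2 ratio of KO over WT for each gene and mark with its standard error, from edgeR for H3K27me3, H3K27ac and H3K4me1 and from limma for H3K4me3, 3 libraries per genotype. Filled points passed an adjusted p of 0.05: Tead4 and Krt18 in H3K27ac, Krt8 and Gata3 in H3K4me1, and Tead4 in H3K4me3.

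The extent of the calls was compared as bp covered per window. With 20 ways to assign 3 of 6 libraries to a genotype, an exact permutation p cannot go below 0.1, so windows were counted whose 3 WT and 3 KO values did not overlap, out of those with a call in any library. In H3K4me3, 3 of 9 genes with a call had less in KO (Tfap2c, Krt18 and Gata2) and 1 had more (Esx1), while 7.25% of windows with a call had less and 24.5% had more. In H3K27me3, 2 of 10 had less (Gata3 and Esx1) and 0 more, against 7.61% and 10.9%. In H3K27ac, 1 of 9 had more (Tead4) and 0 less, against 21.6% and 8.2%. In H3K4me1, 2 of 10 had less (Krt18 and Gata3) and 0 more, against 15.4% and 11.7%. In H3K9me3, 1 of 4 had less (Krt8) and 0 more, against 11.4% and 4.76%.

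**Figure D3:**
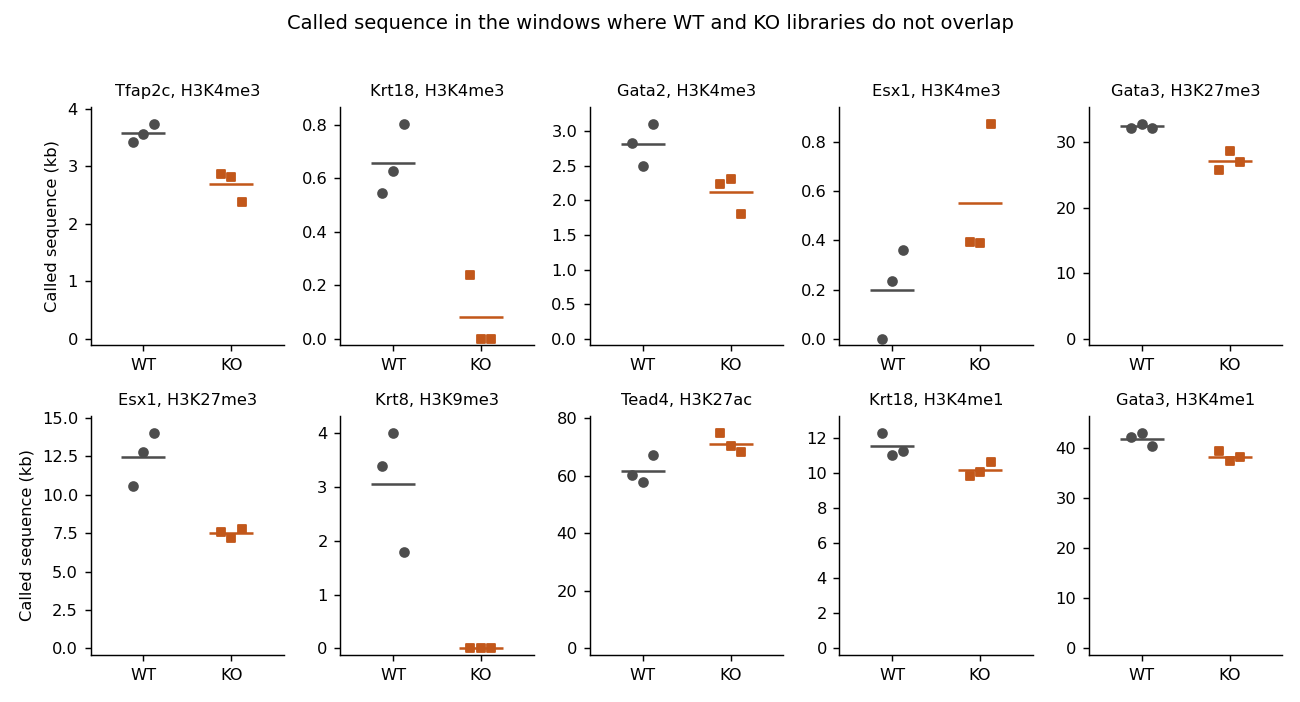
Called sequence in kb per library for the 10 combinations of gene and mark in which the 3 WT (grey circles) and 3 KO (orange squares) libraries did not overlap, with the mean as a bar. KO lies lower in 8 panels and higher in Esx1 for H3K4me3 and Tead4 for H3K27ac.

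Tead4 (chr6:128224288-128300823, minus strand), the factor at the head of the trophectoderm programme, was called in 2 marks, in opposite directions. Of all windows, 7.36% were called higher in KO in H3K27ac and 10.7% lower in H3K4me3. Its H3K27ac was 62.2, 61.7 and 59.0 scaled reads per kb in the 3 WT libraries and 69.3, 72.1 and 73.0 in the 3 KO libraries. All KO values lay above all WT values. The means were 61.0 ± 1.69 in WT and 71.5 ± 1.91 in KO (SD, n = 3 each), a log2 ratio of 0.23 ± 0.03 (SE, edgeR adjusted p = 0.00314). The acetylated sequence was also longer, with 60200, 57800 and 67200 bp in WT and 74800, 70400 and 68200 bp in KO. It covered 71.3% of the window in WT and 82.2% in KO, in 6 to 8 calls per WT library and 4 to 7 per KO library, which merged over all libraries into 3 regions along the gene. The density was not called without TMM (log2 ratio 0.08, edgeR adjusted p = 0.122) or within the promoter window (0.22, edgeR adjusted p = 0.304). The promoter window runs from 5000 bp before to 100 bp after the 5′ end of the annotated gene.

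The Tead4 promoter moved the other way in H3K4me3. One peak over the start site was called in each of the 6 libraries, within chr6:128299425-128301163, and 1 KO library had a further small peak in an intron. Its centred fold over input was 9.63, 13.1 and 11.4 in WT and 9.52, 5.55 and 6.60 in KO. KO replicate 1 lay just below the lowest WT library, and the other KO libraries were well below it. The log2 ratio was -0.68 ± 0.22 (SE, n = 3 each, limma adjusted p = 0.0361). It was no longer called without centring, with enrichment summed over peaks, in the promoter window or when WT replicate 2 or 3 or KO replicate 2 or 3 was left out (limma adjusted p from 0.0523 to 0.318 over these 7). The width called in the window overlapped between the genotypes, at 1524, 1423 and 1574 bp in WT and 1554, 2085 and 1434 bp in KO.

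The H3K27me3 density of Tead4 had the largest log2 ratio of the 10 genes, while its extent overlapped between the genotypes. A domain of 5800 to 8600 bp was called per library, and its density was 51.6, 71.4 and 52.2 reads per kb in WT and 49.4, 40.9 and 47.5 in KO. The groups did not overlap, with WT replicate 2 well above the other WT libraries. The log2 ratio of -0.34 ± 0.14 (SE) was not called (edgeR adjusted p = 0.264). Input reads in this domain stood 0.18 higher in KO on the log2 scale, relative to the median autosomal window. With the input in the offset, an alternative chosen after seeing the data, the ratio was -0.52 and was called (edgeR adjusted p = 0.0474). H3K4me1 was 84.5, 84.8 and 87.2 reads per kb in WT and 93.7, 88.4 and 87.3 in KO, which was not called (edgeR adjusted p = 0.198).

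Among the factors that act with TEAD4, Gata3 (chr2:9857078-9890034, minus strand) carried less of several marks in KO. H3K27me3 covered 32234, 32834 and 32234 bp of its window in WT and 25834, 28634 and 27034 bp in KO, with no overlap. The difference of the means was -5267 bp (exact permutation p = 0.1, two-sided, the smallest possible). Sequence at chr2:9857601-9861800, over coding sequence near the 3′ end, was called in 3 of 3 WT and 0 of 3 KO libraries, while the main domain over the start site was called in all 6. Inside the called sequence the H3K27me3 densities overlapped, at 90.9, 111 and 109 reads per kb in WT and 99.7, 95.0 and 101 in KO, with a log2 ratio of -0.07 ± 0.07 (SE, edgeR adjusted p = 0.699).

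Gata3 was lower in KO in H3K4me1, by density and by extent. The densities were 97.3, 97.8 and 100.3 reads per kb in WT and 87.5, 91.6 and 89.3 in KO, means of 98.5 ± 1.63 and 89.4 ± 2.09 (SD, n = 3 each). Every KO library was below every WT library, with a log2 ratio of -0.14 ± 0.03 (SE, edgeR adjusted p = 0.014). The called sequence went from 42157, 42957 and 40357 bp to 39357, 37357 and 38157 bp. Its H3K27ac was 74.4, 68.0 and 67.3 reads per kb in WT and 64.4, 61.9 and 61.8 in KO, which also did not overlap and did not pass (edgeR adjusted p = 0.0867). The H3K4me1 call was lost without WT replicate 3, KO replicate 1 or KO replicate 3 (edgeR adjusted p = 0.0562, 0.0669 and 0.0524). It was also lost in the promoter window (edgeR adjusted p = 0.385). That window is set at the 5′ end of the annotated gene, 11434 bp from the principal start site of Gata3. It does not hold that start site, so it does not describe the principal promoter.

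The H3K4me3 of Gata3 was spread over short peaks. The region 5′ of the principal start site, chr2:9878878-9879677, was called in all 6 libraries. Peaks at chr2:9874477-9875442, over coding sequence, were called in 0 WT and 3 KO libraries, and those at chr2:9882887-9883680, in an intron, in 2 WT and 0 KO libraries. Strongest-peak fold over input was 4.79, 6.81 and 9.08 in WT and 6.55, 5.10 and 4.71 in KO, and the log2 ratio of -0.30 ± 0.25 (SE) was not called (limma adjusted p = 0.404).

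Gata2 (chr6:88193891-88207032, plus strand), a paralogue of Gata3, had the densest H3K27me3 of the 10 genes. The values were 140.3, 162 and 164 reads per kb in WT and 148, 152 and 148 in KO, which overlapped, with a log2 ratio of -0.06 ± 0.06 (SE, edgeR adjusted p = 0.717). Its H3K4me3 was narrower in KO, at 2830, 2496 and 3106 bp in WT and 2231, 2310 and 1806 bp in KO. A peak upstream of the start site, chr6:88190641-88191103, was called in 3 WT and 0 KO libraries, while a peak over the start site, next to the CpG-rich sequence shown above, was called in 2 WT and 2 KO libraries. In WT replicate 2 and KO replicate 3 the nearest peak began 176 and 62 bp inside the gene. The strongest peak of Gata2 was not called (limma adjusted p = 0.968).

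Tfap2c (chr2:172549593-172558622, plus strand), the gene for AP-2γ, gave a like picture in H3K4me3. It covered 3430, 3568 and 3742 bp in WT, a mean of 3580 ± 156, against a mean of 2688 ± 269.6 bp in KO (SD, n = 3 each), where the lowest library had 2379 bp. Every KO library was below every WT library. The peaks over the start site were called in all 6 libraries, and the sequence not called in KO lay upstream of it, as at chr2:172546504-172547140 in 2 WT and 0 KO libraries. Tfap2c H3K27ac stood higher in KO, at 66.6, 63.1 and 69.1 reads per kb in WT and 78.0, 90.9 and 74.4 in KO. Its called regions run past the window on either side, the downstream one merging over all libraries to chr2:172558401-172624200 (65800 bp). Reads were shared out by length, so where along these regions the difference lies cannot be told. The groups did not overlap, but the log2 ratio of 0.29 ± 0.08 (SE) missed the threshold (edgeR adjusted p = 0.0539). DESeq2 called it (adjusted p = 0.0162), and so did edgeR without KO replicate 3 (adjusted p = 0.0428). Its H3K4me1 was 102, 100.0 and 101 reads per kb in WT and 102, 101 and 101 in KO, which overlapped.

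Cdx2 (chr5:147300805-147307270, minus strand), the homeobox factor that defines the lineage, lay in H3K27me3 over 98.4% to 100% of its window in the mean of either genotype. Its density was 103, 120.1 and 115 reads per kb in WT and 107, 119 and 103 in KO, and the log2 ratio was -0.04 ± 0.08 (SE, edgeR adjusted p = 0.862). In H3K27ac it was 55.0, 53.8 and 49.1 in WT and 46.5, 44.2 and 45.3 in KO, and in H3K4me1 104, 94.4 and 93.4 and 88.7, 86.7 and 83.3. All KO libraries were lower in both marks, and neither passed (edgeR adjusted p = 0.128 and 0.0758). H3K4me3 peaks were called in all 6 libraries and covered the start site in 5 of them, the peak of WT replicate 1 beginning 73 bp inside the gene. The strongest peak had a centred fold of 5.32 to 9.17 in WT and 5.62 to 7.53 in KO.

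Of the genes that act later, Elf5 (chr2:103411688-103450989, plus strand) had the lowest H3K27me3 density of the set. No H3K4me3 and no H3K9me3 was called in any library. H3K27me3 over its start site, within chr2:103409201-103413400, was called in 3 WT and 1 KO libraries. Within the promoter window H3K27me3 covered 3901, 2588 and 988 bp in WT and 0, 1388 and 513 bp in KO, which overlapped. H3K27ac covered 3400, 0 and 1800 bp in WT and 5000, 5800 and 2800 bp in KO, and with no call in WT replicate 2 it was not tested. Its H3K27me3 was 28.1, 28.8 and 29.3 scaled reads per kb in WT and 26.97, 27.9 and 28.0 in KO. The 1 input of each genotype, unscaled and read over the same calls, had 16.0, 17.2 and 17.6 reads per kb in WT and 19.3, 20.0 and 18.5 in KO. Relative to the median autosomal window, that input stood 0.01 higher in KO on the log2 scale. H3K4me1 was 53.7, 59.0 and 57.0 in WT and 48.5, 47.6 and 51.5 in KO, lower in all KO libraries and short of the threshold (edgeR adjusted p = 0.0785).

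Hand1 (chr11:57828705-57832818, minus strand), a basic helix-loop-helix factor of trophoblast giant cells, had Polycomb levels close to those of Cdx2. Its H3K27me3 was 108, 128 and 113 reads per kb in WT and 103, 102 and 120.2 in KO (edgeR adjusted p = 0.632). The strongest H3K4me3 peak lay inside the gene in WT replicates 1 and 2 and past its end, within chr11:57827424-57828402, in WT replicate 3 and the 3 KO libraries. None of the tested marks of Hand1 was called.

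Esx1 (chrX:137115397-137122083, minus strand), an X-linked homeobox gene of the placenta, had less Polycomb sequence and more H3K4me3 sequence in KO. H3K27me3 covered 10600, 12800 and 14000 bp in WT and 7600, 7200 and 7800 bp in KO, or 74.7% and 45.1% of the window. The density of the called domain overlapped between the genotypes, at 39.1, 44.9 and 40.2 reads per kb in WT and 39.6, 44.0 and 45.6 in KO (edgeR adjusted p = 0.831). H3K4me3 covered 0, 235 and 361 bp in WT and 393, 390 and 873 bp in KO, the lowest KO value lying just above the highest WT value. Its peaks lay downstream of the start site, at chrX:137118140-137118833, in 2 WT and 3 KO libraries. KO replicate 3 alone had further peaks at chrX:137118925-137119186 and chrX:137119887-137120144, which add to its 873 bp. The latter lay 182 bp downstream of the CpG-dense stretch printed above. H3K27ac and H3K9me3 were not called in any library.

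The input of Esx1 also differed. The H3K27me3 lists share 1 input per genotype, so its values are the same library read over the calls of each list and not replicates. They were 7.08, 6.80 and 6.71 input reads per kb in WT and 8.82, 8.61 and 8.85 in KO. The KO over WT ratio stood 0.18 higher on the log2 scale than that of the median autosomal window. Over 1 Mb around the gene that difference was 0.26, against a spread (SD) of 0.14 over autosomal windows and a median of 0.04 over the X chromosome. In the H3K27ac and H3K4me1 experiment the window stood 0.45 higher in KO and the 1 Mb around it 0.10 lower, written as a log2 ratio of -0.10. The input's part in the Esx1 results was not tested for H3K27me3 and H3K4me3 extent. For H3K4me1, at 51.1, 52.8 and 56.6 reads per kb in WT and 43.9, 45.3 and 43.4 in KO, the log2 ratio was -0.27 ± 0.09 (SE, edgeR adjusted p = 0.106), and -0.72 with the input in the offset (edgeR adjusted p = 0.000826).

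Krt18 (chr15:102028180-102032027, plus strand) had H3K4me3 calls over its start site in the WT libraries and none there in KO. The calls covered 543, 625 and 803 bp in WT and 239, 0 and 0 bp in KO. All 3 WT libraries had a peak over the start site, within chr15:102027914-102028572, across the sequence printed above. KO replicate 1 had a peak 154 to 393 bp inside the gene and the other KO libraries none. WT replicates 2 and 3 had a further peak upstream, within chr15:102025557-102026009. Within 5000 bp upstream to 100 bp downstream of the start, the cover was 357, 602 and 717 bp in WT and 0 in all 3 KO libraries. The WT peaks were low, with a fold over input of 4.91, 5.41 and 5.27, against 4.15 in KO replicate 1, and a missing call does not show that the mark was absent.

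H3K27ac at Krt18 was lower in KO as well. It was 51.1, 55.7 and 55.3 reads per kb in WT and 41.8, 42.4 and 40.9 in KO, means of 54.1 ± 2.54 and 41.7 ± 0.751 (SD, n = 3 each). The groups were well apart, with a log2 ratio of -0.37 ± 0.09 (SE, edgeR adjusted p = 0.026). Within the promoter window alone it was -0.48 (edgeR adjusted p = 0.0273). The call was lost when any 1 library other than WT replicate 1 was left out (edgeR adjusted p from 0.0627 to 0.0818) and without the covered length in the offset (edgeR adjusted p = 0.11). H3K4me1 covered 12248, 11021 and 11248 bp in WT and 9821, 10021 and 10621 bp in KO, and its density fell short of the threshold (edgeR adjusted p = 0.168). H3K27me3 at Krt18 overlapped between the genotypes, at 55.0, 61.0 and 52.4 reads per kb in WT and 63.4, 57.3 and 56.7 in KO (edgeR adjusted p = 0.736).

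Krt8 (chr15:101996698-102004482, minus strand) lies close to its partner on the same chromosome. The windows of both do not touch, that of Krt8 ending at chr15:102009482 and that of Krt18 beginning at chr15:102023180. No H3K4me3 peak lay over the CpG-poor start site of Krt8. Small peaks in an intron, within chr15:102002914-102003470, were called in 2 WT and 2 KO libraries. Its H3K4me1 was lower in KO, at 103, 101 and 96.5 reads per kb in WT and 83.8, 86.7 and 86.8 in KO. The groups did not overlap, with means of 100.1 ± 3.35 and 85.8 ± 1.70 (SD, n = 3 each) and a log2 ratio of -0.22 ± 0.05 (SE, edgeR adjusted p = 0.0113). The 1 input of each genotype, unscaled and read over the calls of each library, had 29.4, 29.9 and 30.6 reads per kb in WT and 27.4, 27.5 and 27.3 in KO. These input values are not replicates. Relative to the median autosomal window, this input stood at -0.07 in KO against WT on the log2 scale. With input in the offset the ratio was -0.15 and was not called (edgeR adjusted p = 0.0621), and the same was true without KO replicate 1 (-0.21, edgeR adjusted p = 0.0546) and without the covered length in the offset (-0.07, edgeR adjusted p = 0.352).

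Krt8 was also the gene with H3K9me3 calls in every WT library and none in KO. Within chr15:101993001-101997200, over the 3′ end of its coding sequence and past the gene, H3K9me3 covered 3400, 4000 and 1800 bp in WT and 0 bp in all 3 KO libraries. Of all windows with an H3K9me3 call, 2.15% were called in 3 WT and 0 KO libraries. These regions were weak, with 39.7, 26.3 and 32.8 ChIP reads per kb, where the 1 shared WT input had 23.2, 23.5 and 26.1. None was left when each list was held to the same number of top-ranked regions. Gata3 had H3K9me3 within chr2:9866401-9874600 in 3 WT and 1 KO libraries, at 2400, 6600 and 2600 bp in WT and 0, 0 and 4200 bp in KO. Tfap2c and Tead4 had an H3K9me3 call in KO replicate 2 alone, and the other 6 genes had none. Of all gene windows, 55.2% had an H3K9me3 call in any library.

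**Figure D4:**
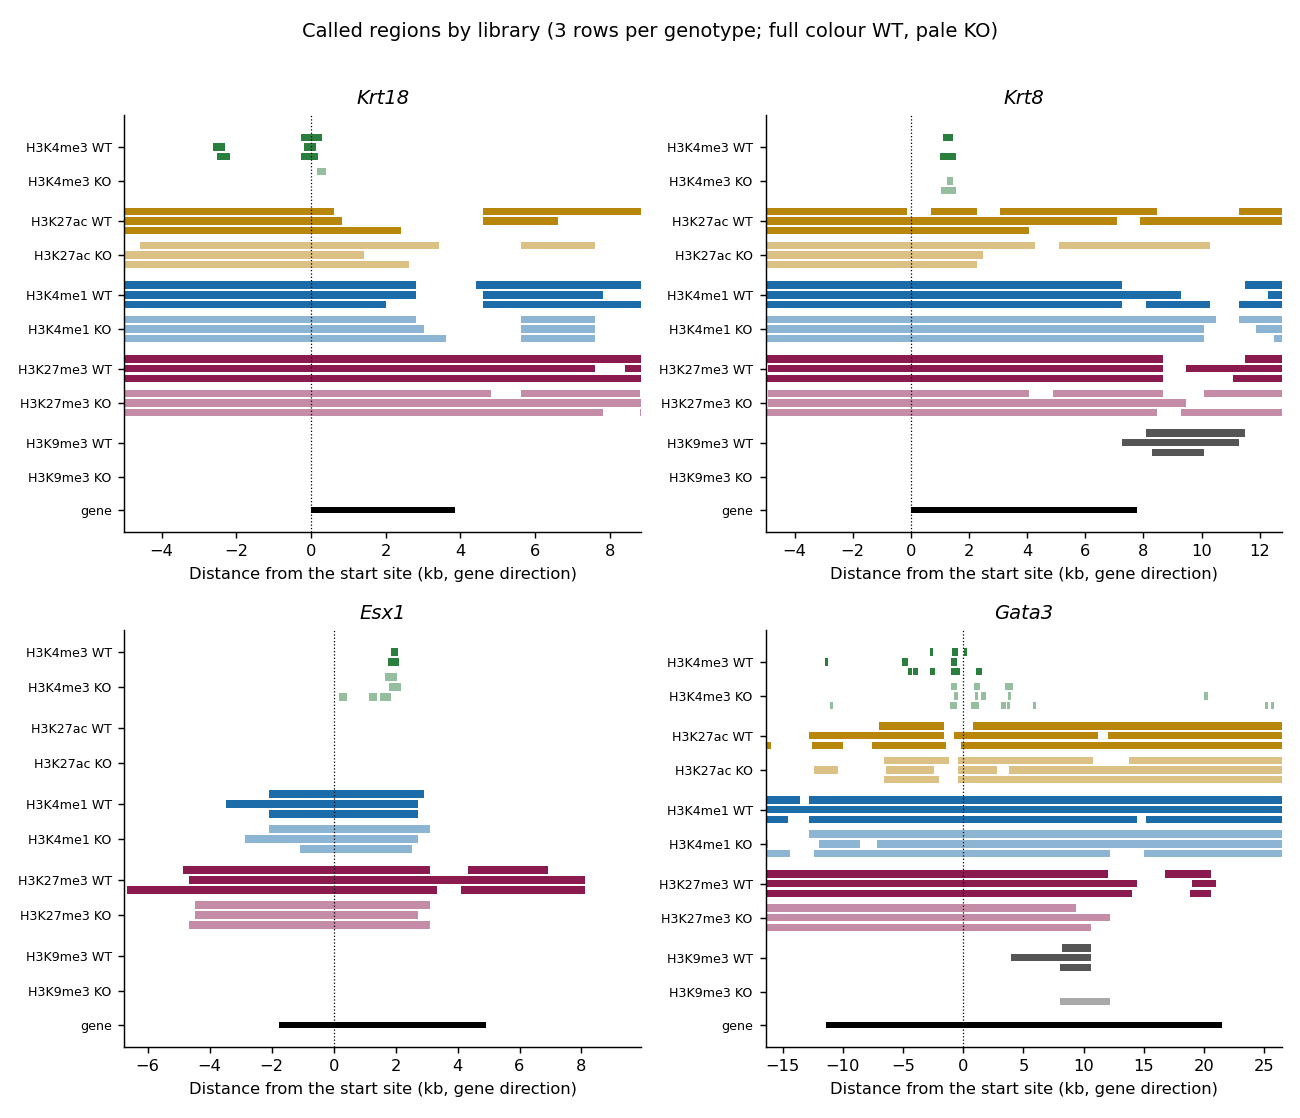
Called regions around the start site (dotted line, distance in kb in the direction of the gene) of Krt18, Krt8, Esx1 and Gata3, 1 row per library with WT in full colour and KO pale, the gene as a black bar. Krt18 shows the start-site H3K4me3 peak in 3 WT libraries and a short one inside the gene in 1 KO library, Krt8 the H3K9me3 region in 3 WT libraries, and Esx1 and Gata3 the longer H3K27me3 domains of WT.

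The other genes of the pathway were counted from 3 fixed lists of 32 genes. Of 14 trophoblast lineage genes, 2 of 9 tested rose in H3K4me3 and 1 fell, beside 9.96% and 10.7% of all windows. In H3K27ac 1 of 11 rose and 1 fell, beside 7.36% and 2.6%. Eomes, the T-box factor of trophoblast stem cells, rose from 8.76 ± 0.860 to 13.9 ± 2.55 fold (centred, SD, n = 3 each, log2 ratio 0.65, limma adjusted p = 0.0209). Ascl2, a factor of the spongiotrophoblast, fell from 10.9 ± 2.92 to 6.86 ± 0.629 fold (limma adjusted p = 0.0462). In H3K27ac, Id2 fell from 69.7 ± 7.47 to 53.1 ± 3.64 reads per kb (edgeR adjusted p = 0.0372), and Esrrb, which embryonic stem cells also use, rose from 97.4 ± 1.05 to 109 ± 3.40 (edgeR adjusted p = 0.00394). Esrrb also rose in H3K4me3, from 9.63 ± 1.66 to 14.6 ± 2.36 fold (limma adjusted p = 0.031). In H3K27me3, H3K4me1 and H3K9me3, 0 of 11, 0 of 12 and 0 of 6 tested passed in edgeR, where 2, 3 and 0 had an unadjusted p under 0.05. The same held for 1478 of 9654 windows in H3K27me3, 3700 of 16667 in H3K4me1 and 730 of 6068 in H3K9me3.

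Of 10 Hippo genes, 1 of 9 tested rose in H3K4me3 and 0 fell, beside 9.96% and 10.7% of all windows. It was the kinase gene Lats2, from 6.87 ± 1.82 to 11.1 ± 1.32 fold (limma adjusted p = 0.0251). In H3K27ac 1 of 9 rose and 2 fell, beside 7.36% and 2.6% of all windows. Tead2, a paralogue of Tead4, rose from 59.0 ± 3.80 to 74.1 ± 0.279 reads per kb (edgeR adjusted p = 0.00593), while Tead3, another paralogue, fell from 101 ± 3.62 to 80.9 ± 8.67 (edgeR adjusted p = 0.0242). Amotl2, an angiomotin family gene, fell from 109 ± 1.67 to 94.1 ± 7.05 (edgeR adjusted p = 0.0396). Of 8 genes of the trophectoderm epithelium, all tested in H3K4me3, 0 rose and 2 fell in limma, beside 9.96% and 10.7% of all windows. The 2 were Cldn6 and Cldn4, which encode tight junction claudins. The Cldn4 libraries overlapped between the genotypes, and the gene was named after its values were seen. Cldn6 went from 10.6 ± 0.363 to 6.83 ± 0.124 fold (limma adjusted p = 0.0255). In H3K27ac 1 of 8 epithelial genes rose and 0 fell, beside 7.36% and 2.6% of all windows. It was Cdh1, the E-cadherin gene, from 129.9 ± 4.05 to 147 ± 3.25 reads per kb (edgeR adjusted p = 0.0045). In the Hippo and epithelial lists no gene passed in H3K27me3, H3K4me1 or H3K9me3. There 0 of 5, 4 of 9 and 1 of 4 Hippo genes tested had an unadjusted edgeR p under 0.05. Of the epithelial genes 1 of 5, 2 of 8 and 0 of 3 did, and of all windows 1478 of 9654, 3700 of 16667 and 730 of 6068.

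The label of the cells was checked against marker genes. Of 10 embryonic stem cell markers, 9 had H3K4me3 in all 6 libraries and 3 had H3K27me3 in all 6. Of all gene windows, 61.7% had H3K4me3 in all 6 and 44.4% had H3K27me3. Summed over the 10, H3K4me3 covered 36636 to 38281 bp in WT and 52289 to 62158 bp in KO. All 5 primitive endoderm markers carried both marks in all 6 libraries. Of 5 fibroblast markers, Col1a2, Postn and Dcn had no H3K4me3 call in any library. Col1a1 and Thy1 went the other way, with H3K4me3, H3K27me3 and H3K27ac in all 6. The H3K27ac of Col1a1 was called higher in KO (edgeR adjusted p = 0.0423), as was that of 7.36% of all windows. Summed H3K4me3 of the primitive endoderm markers was 6075 to 8557 bp in WT and 5352 to 8192 bp in KO, and of the fibroblast markers 1276 to 1499 and 1235 to 1984 bp. Over the 10 trophectoderm genes it was 11839 to 17084 bp in WT and 13052 to 13590 bp in KO. The guides cut the first exon of Nfkbia, an edit the calls do not show. The strongest H3K4me3 peak in its window had a centred fold of 13.5, 11.6 and 12.9 in WT and 3.80, 4.95 and 4.71 in KO (log2 ratio -1.51 ± 0.20, SE, limma adjusted p = 0.000174), while its H3K27ac was not called (edgeR adjusted p = 0.505). ChIP reads within called regions were 34736939 to 35951506 per H3K4me1 library and 22943091 to 28339766 per H3K27ac library. They numbered 8548342 to 12105343 in the H3K9me3 and 8910890 to 10938375 in the H3K27me3 libraries, and the H3K4me3 lists hold no counts.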

How the data were processed

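ChIP-seq lists of enriched regions from 15 WT and 15 KO libraries were used, the 8 inputs entering only through those lists. Per the study's methods and notes, the authors trimmed reads with Trim Galore (0.6.6), aligned them to GRCm38 with Bowtie2 (2.4.4), removed multimapped and blacklisted reads, marked duplicates, and called regions per library against 1 input per genotype and experiment. The aligner for H3K27ac and the steps for H3K9me3 are not given in the sources used here. Drosophila spike-in reads of H3K27me3 were discarded. The H3K4me3 lists (MACS2 2.2.7.1) hold, as deposited by the authors, a fold enrichment ratio at the summit, −log10 p- and q-values and a score per peak. The other lists (epic2, a form of SICER, 0.0.52) hold the deposited raw read counts of ChIP and input, a p-value with its FDR, a score and a log2 fold change over input.

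Genes were placed by GENCODE M21 on GRCm38, gene body plus 5000 bp. Covered bp were summed per library and compared by whether the 3 WT and 3 KO values overlapped. ChIP counts were apportioned to windows, windows with calls in all 6 libraries and at least 10 reads in each were tested with edgeR (4.0.16, quasi-likelihood, TMM, covered length in the offset), and log2 fold enrichment of the strongest peak, centred per library, with limma (3.58.1), each with Benjamini-Hochberg adjustment over all windows at 0.05. Enriched regions were chosen by calling, so a density describes called sequence only. Reads of a region that runs past a window were shared out by length, so a density also carries sequence outside the window. The steps were tested on simulated data. Alternatives included DESeq2 (1.42.0), other windows, scalings and FDR limits, and leaving out each library. Members of the set were named throughout, with at most 2 genes per other list and mark, those of largest log2 ratio that passed and whose groups did not overlap. Esrrb and Cldn4 in H3K4me3 and Amotl2 in H3K27ac fall outside that rule and were named after their values were seen. The genes and lists were chosen with earlier results of these data known. Labels share replicate numbers, but same-numbered libraries did not deviate together (correlations from -0.01 to 0.03).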

Additional observations from a re-analysis of the deposited data

How the results depend on the processing

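Of 34 gene and mark pairs tested, 5 were called. Over 68 alternative values of these 5, 23 no longer passed and 0 reversed, and of 399 values of the uncalled pairs 20 passed. The number of genes called in H3K4me3 was 1, and 0 without centring, with enrichment summed over peaks and in the promoter window. For H3K27me3 it was 0, but 3 without the covered length in the offset (Gata3, Tead4 and Esx1). The log2 ratio of Esx1 then turned from 0.06 to -0.72 (edgeR adjusted p = 0.0119), and its called sequence was shorter in KO. For H3K27ac the number of genes called was 2, and 5 without TMM (Hand1, Krt18, Gata3, Cdx2 and Gata2). It was 1 in the promoter window and 0 among windows of like length. With input reads in the offset, chosen after seeing the data, it was 5 for H3K4me1 (otherwise 2), 4 for H3K27ac and 1 for H3K27me3. Leaving out 1 library gave 0 to 2 for H3K4me1 (0 without KO replicate 1), 0 to 1 for H3K4me3 and 1 to 2 for H3K27ac. The cause was not tested except where stated.

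Genes whose covered bp did not overlap numbered 0 in the promoter window for H3K27me3, H3K9me3 and H3K27ac and 1 for H3K4me1. With 20000 bp flanks they numbered 2 for H3K9me3 and 6 for H3K27ac, and with lists cut to equal numbers of top-ranked regions 0 and 2. Leaving out 1 library gave 2 to 4 for H3K4me1, 4 to 6 for H3K4me3, 1 to 3 for H3K27ac, 2 to 3 for H3K27me3 and 1 to 2 for H3K9me3.

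With the replicate block the genes called were 2 for H3K4me1, 1 for H3K27ac (Krt18 edgeR adjusted p = 0.0624), 1 for H3K4me3 and 0 for H3K27me3. The numbers do not pair the libraries, and the block called 937 and 427 windows higher and lower in H3K4me1, 875 and 241 in H3K27ac, 71 and 47 in H3K27me3 and 2 and 5 in H3K9me3.

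Over all windows, the calls higher and lower moved by more than 1.5 times in these settings. Without the covered length they were 2907 and 2155 (H3K4me1), 1910 and 1492 (H3K27ac), 590 and 630 (H3K27me3) and 235 and 226 (H3K9me3). With input in the offset they were 1297 and 1313, 1047 and 844, 347 and 362, and 502 and 477 in the same order. In the promoter window they were 362 and 119, 202 and 44, 19 and 10, and 0 and 0, the last with an unadjusted p under 0.05 in 154 of 1434 windows. DESeq2 gave 161 and 130 for H3K27me3 and 40 and 76 for H3K9me3, and enrichment summed over peaks gave 578 and 497 for H3K4me3. Leaving out 1 library gave 786 to 849 and 279 to 355 for H3K4me1, 736 to 842 and 181 to 252 for H3K27ac, 44 to 61 and 19 to 53 for H3K27me3, 3 to 12 and 3 to 34 for H3K9me3, and 835 to 1064 and 895 to 1028 for H3K4me3. H3K9me3 density had no gene of the set to test, so its alternatives give no value. With 3 libraries per genotype the exact permutation p cannot go below 0.1. The H3K4me3 lists hold no read counts, so their depth is unknown.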
